A study of Drosophila melanogaster with 6 samples.

Results

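The circadian clock genes examined here were the activators Clk and cyc, the repressors per and tim, the loop transcription factors vri, Pdp1 and cwo, the kinase gene dco and the light receptor gene cry. They were chosen by symbol, as the probe sets whose array annotation gives exactly 1 gene symbol and that symbol is 1 of these 9. All 9 genes were represented, of 11982 genes with such a probe set, by 11 of the 18769 probe sets tested, with 2 probe sets each for tim and cwo and 1 for each other gene. Expression was measured on 6 Affymetrix arrays of Drosophila S2 cells, a macrophage-like line from fly embryos that engulfs particles. In the fragment group (3 arrays), the cells were kept for 1 h at 25 °C in medium with 1% serum together with 25 apoptotic cell fragments per cell, and the fragments were prepared from S2 cells treated with cycloheximide at 1.5 µg/ml for 24 h. In the group with medium alone (3 arrays), cells of the same line were kept in the same medium for the same time with nothing added. The fragments may themselves bring RNA or cycloheximide, which the other group lacked; this and a response of the phagocytes cannot be told apart. The labels call the replicates biological without saying what separates them.

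In the fly clock, the bHLH-PAS proteins CLK and CYC pair on E-box sequences and switch on per, tim, vri, Pdp1 and cwo. PER and TIM return to the nucleus and block CLK and CYC, VRI represses and PDP1 activates Clk transcription, and CWO represses E-box genes. The kinase Doubletime, the product of dco, phosphorylates PER, and cryptochrome, the product of cry, triggers the loss of TIM in light. S2 cells are known for lacking a running clock and are widely used to test CLK by transfection, with CYC supplied by the cells themselves. The labels used here give no time of day for the cultures.

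The deposited values differed in kind among the clock components. Clk, per, tim and cry had flat values, and the 3 loop transcription factors cwo, vri and Pdp1 read higher with fragments than with medium alone in at least 1 probe set. The activator cyc and the kinase dco varied little and overlapped between the groups. A probe set is called flat here when its log2 value moved by less than 0.01 across the 6 arrays, and varying otherwise. Flat values were found in 5 of the 11 clock probe sets, and in 11528 of all 18769 (61.4%).

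Clk, the activator that S2 cells must be given for a clock reporter to respond, read 6.09 on each of the 6 arrays. Of the repressor genes, per read 6.41 on each array, and the 2 probe sets of tim read 6.19 and 6.30 on each array. The photoreceptor gene cry read 6.29 on each array. None of these 5 probe sets moved by more than 6.43e-06 log2 units, so they can show no difference between the groups in either direction. A flat value does not show that the transcript was absent: the probe set of crc, the fly ATF4 gene and a bZIP gene outside the clock, was flat at a log2 value of 12.47.

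**Figure D1:**
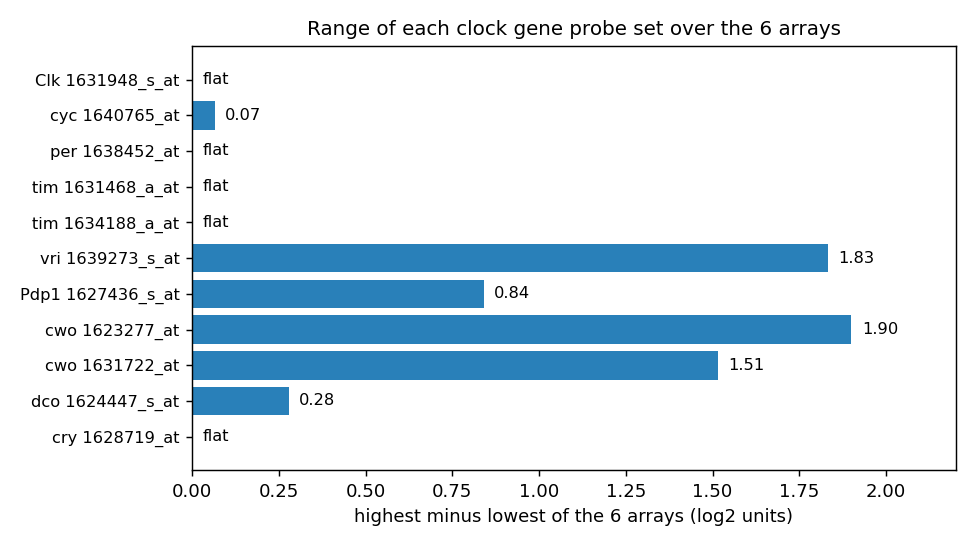
Range of each of the 11 clock gene probe sets over the 6 arrays, as the highest minus the lowest log2 value. The 5 grey probe sets of Clk, per, tim and cry are flat, and the blue bars of the other 6 reach from 0.07 for cyc to 1.90 for the first probe set of cwo.

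The E-box repressor cwo gave the largest difference among the clock genes. Its probe set 1623277_at read 12.17, 11.90 and 11.84 on fragment replicates 1, 2 and 3, against 11.24, 11.05 and 10.27 on medium-alone replicates 1, 2 and 3. Every fragment array lay above every array of medium alone, with a gap of 0.60 between the lowest of the first group and the highest of the second. The means were 11.97 ± 0.18 with fragments and 10.85 ± 0.51 with medium alone (SD, n = 3 each), a log2 difference of 1.12 or 2.17-fold. Where in the cwo transcript this probe set lies is unknown here.

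The second probe set of cwo, 1631722_at, gave a smaller difference that rested largely on 1 array. It read 10.07, 9.78 and 9.83 on the fragment arrays, against 9.76, 9.79 and 8.56 on the arrays of medium alone. The groups overlapped, because medium-alone replicates 1 and 2 stood close to fragment replicates 2 and 3, and only medium-alone replicate 3 was low. The log2 difference was 0.52 with all 6 arrays and 0.12 without medium-alone replicate 3. The first probe set differed by 1.12 and 0.82 in the same settings. The probe sets of cwo thus disagreed on the size of the difference in both settings.

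The bZIP repressor of Clk, vri, read 8.51, 8.34 and 8.13 on fragment replicates 1, 2 and 3, against 7.69, 7.42 and 6.68 on medium-alone replicates 1, 2 and 3. The groups did not overlap and stood 0.45 apart at their nearest arrays. The means were 8.33 ± 0.19 with fragments and 7.26 ± 0.52 with medium alone (SD, n = 3 each), a log2 difference of 1.07 or 2.09-fold. In order from the most positive difference, vri ranked 26 among the 7241 varying probe sets, and the first cwo probe set ranked 24.

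Pdp1, whose bZIP product activates Clk and competes with VRI for the same sites, gave a smaller difference. It read 8.71, 8.65 and 8.52 on the fragment arrays, against 8.29, 8.28 and 7.87 on the arrays of medium alone. The groups did not overlap, with a gap of 0.23, and again medium-alone replicate 3 was the lowest of the 6 arrays. The means were 8.62 ± 0.095 with fragments and 8.14 ± 0.24 with medium alone (SD, n = 3 each), a log2 difference of 0.48 or 1.40-fold, ranked 328 among the varying probe sets. Pdp1 encodes several isoforms, only some of which act in the clock, and which of them the probe set reads is unknown here. Probe sets with the suffix _s_at, such as those of vri, Pdp1, dco and Clk, are of a class that can match more than 1 transcript.

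**Figure D2:**
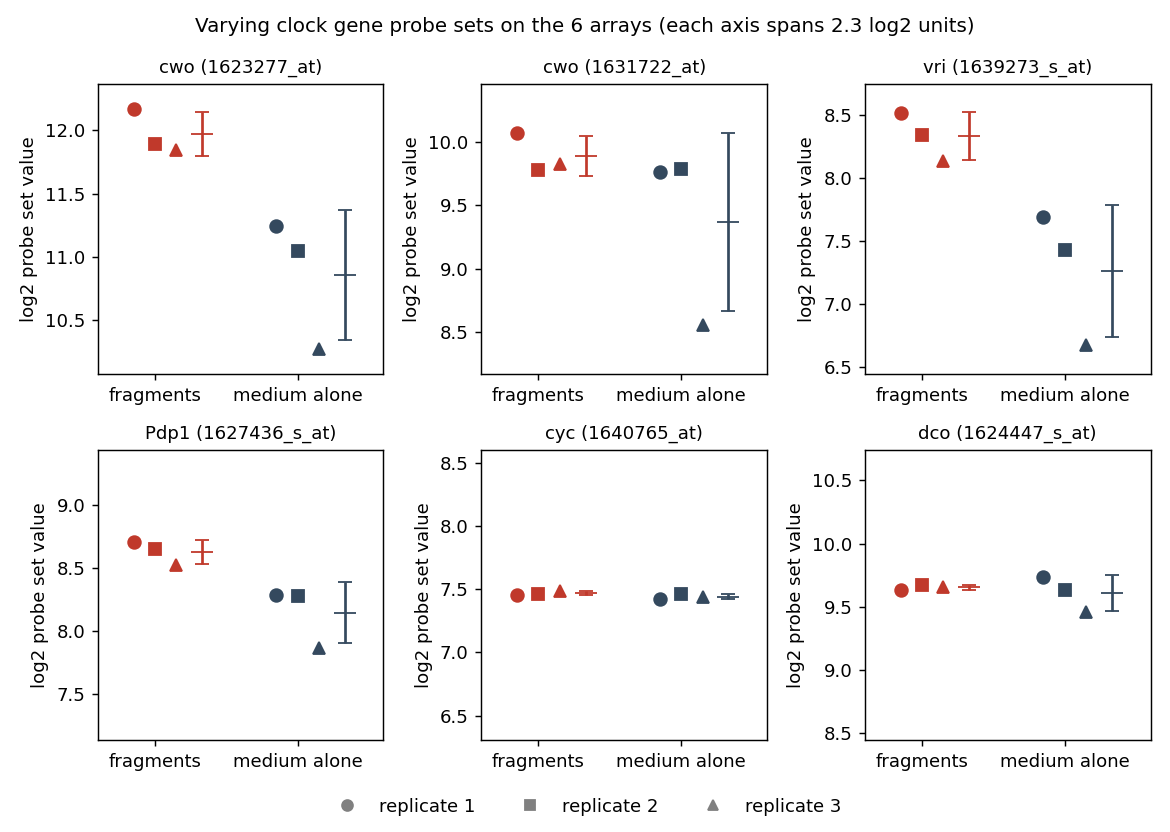
Log2 values of the 6 varying clock gene probe sets on fragment arrays (left, red) and arrays of medium alone (right, dark), with a marker shape for each replicate number and the group mean ± SD (n = 3) to the right of each group. The first cwo probe set, vri and Pdp1 do not overlap between groups, and medium-alone replicate 3 is the lowest array in every panel but that of cyc.

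The CLK partner cyc read 7.46, 7.47 and 7.49 on the fragment arrays, against 7.42, 7.46 and 7.44 on the arrays of medium alone. Its groups overlapped, and the difference of 0.028 log2 units had a 95% interval from -0.043 to 0.099 (limma, varying probe sets). That interval describes the deposited values, which moved by only 0.065 log2 units for cyc. The summary method is unknown here and 61.4% of all probe sets were flat, so such a small range cannot show that the cyc transcript was unchanged. The PER kinase gene dco read 9.63, 9.67 and 9.66 on the fragment arrays, against 9.73, 9.63 and 9.46 on the arrays of medium alone. These groups overlapped as well, with a difference of 0.048 and an interval from -0.14 to 0.24, and the fragment arrays lay within the span of medium alone. Without medium-alone replicate 3 the dco difference was -0.027.

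No clock probe set passed the test of the whole array. The test was limma's moderated test with Benjamini-Hochberg adjustment over all 18769 probe sets, at an adjusted p under 0.05. Of the 11 clock probe sets 0 passed, and 57 of all probe sets (0.304%) did. An unadjusted p under 0.05 was reached by 3 of the 11 and by 2031 of all (10.8%). With the flat probe sets included, the common SD that limma estimates was 4.4e-09, and it had little weight (0.12 degrees of freedom). The fit was therefore repeated over the 7241 varying probe sets, where that SD was 0.061 with 1.4 degrees of freedom. There too, 0 of 6 clock probe sets passed in limma, against 496 of all varying probe sets (6.85%), and 3 of the 6 reached an unadjusted p under 0.05, against 1712 of all (23.6%). As the clock genes were chosen with this comparison known, these counts and the p-values below describe where the genes stand and are not independent evidence.

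For the first cwo probe set the limma adjusted p was 0.349 over all probe sets (SE 0.31) and 0.0793 over the varying ones (SE 0.27). For vri it was 0.380 (SE 0.32) and 0.0929 (SE 0.28), and for Pdp1 0.392 (SE 0.15) and 0.103 (SE 0.13). The second cwo probe set stood at 0.758 and 0.458, cyc at 0.623 and 0.634, and dco at 0.902 and 0.777. Complete separation upward, with every fragment array above every array of medium alone, was seen in 3 of the 6 varying clock probe sets and separation downward in 0, against 1063 (14.7%) and 1257 (17.4%) of all varying probe sets. The median difference of the 6, which count cwo by 2 probe sets, was 0.50 log2 units, beside -0.0035 over all varying probe sets. Without medium-alone replicate 3 the differences were 0.82 and 0.12 for the cwo probe sets, 0.77 for vri and 0.34 for Pdp1. Those of cyc and dco were then 0.027 and -0.027.

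Medium-alone replicate 3 stood apart from the other arrays of its group and read low for most of the varying clock probe sets. Across all tested probe sets medium-alone replicates 1 and 2 correlated at r = 0.9993, and replicate 3 with them at 0.9900 and 0.9907. Its log2 value minus the mean of replicates 1 and 2 was -0.87 for the first cwo probe set, -0.88 for vri, -0.42 for Pdp1, -1.22 for the second cwo probe set, -0.23 for dco and -0.0018 for cyc. It was the lowest array of medium alone in 5 of the 6 clock probe sets and in 45.8% of all varying probe sets, and it read at least 0.4 lower in 4 of the 6 and in 12.3% of all. On the fragment arrays, which include no such array, the SD of the first cwo probe set was 0.18, and that of vri 0.19.

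Without medium-alone replicate 3, the differences of cwo, vri and Pdp1 were smaller and so were their errors. The first cwo probe set then differed by 0.82 log2 units or 1.77-fold, vri by 0.77 or 1.71-fold, and Pdp1 by 0.34 or 1.27-fold. Over the varying probe sets these 3 passed, all of them higher with fragments, at limma adjusted p of 0.0199, 0.0325 and 0.0346 (SE 0.12, 0.14 and 0.063). In the same fit 876 of 7241 probe sets (12.1%) passed, 342 of them higher (4.72%). Over all 18769 probe sets the adjusted p remained at 0.257, 0.314 and 0.295, where 8 (0.0426%) passed. Leaving out any other array kept the 3 differences positive, between 1.02 and 1.31 for the first cwo probe set, between 0.97 and 1.28 for vri and between 0.44 and 0.55 for Pdp1, and no clock probe set passed then. The second cwo probe set ran from 0.43 to 0.73 under those omissions.

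**Figure D3:**
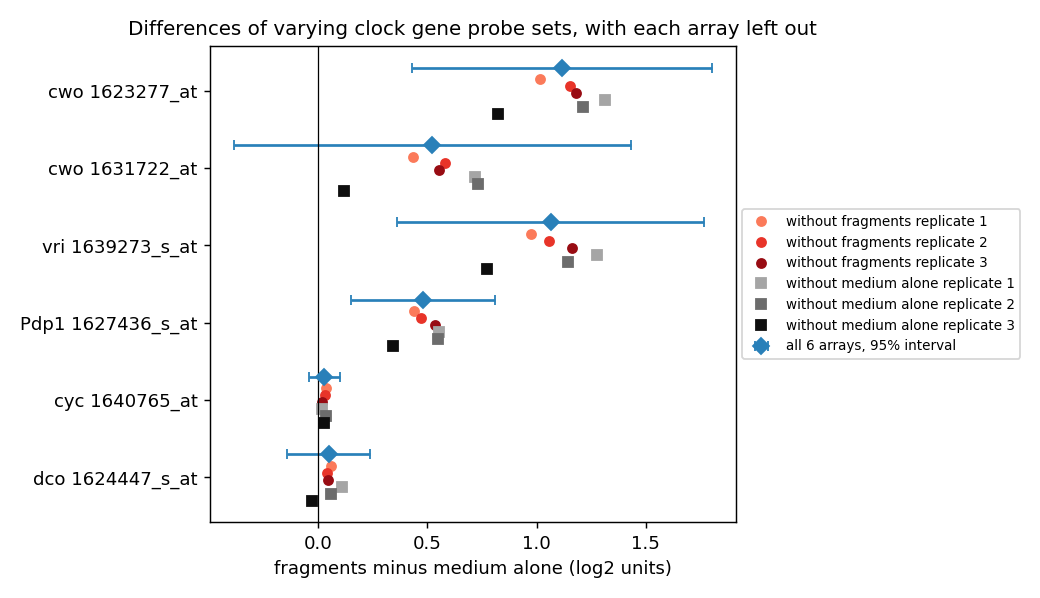
Difference in log2 value, fragments minus medium alone, of the 6 varying clock gene probe sets: blue diamonds with all 6 arrays and the 95% interval of limma over the varying probe sets, circles without 1 fragment array and squares without 1 array of medium alone. The black squares, without medium-alone replicate 3, are the lowest for cwo, vri, Pdp1 and dco, and lie at 0.82, 0.77 and 0.34 for the first cwo probe set, vri and Pdp1.

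**Figure D4:**
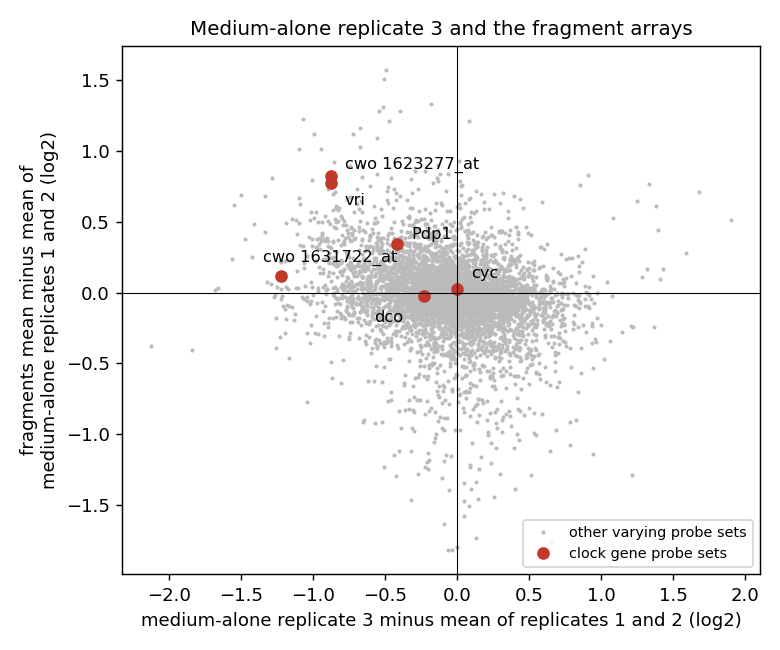
Each grey point is a varying probe set, placed by medium-alone replicate 3 minus the mean of medium-alone replicates 1 and 2 (horizontal, log2) and by the fragment mean minus the same mean (vertical, log2); both axes share replicates 1 and 2. The red clock probe sets of cwo (1623277_at), vri and Pdp1 lie to the left and above 0, the second cwo probe set lies far to the left at 0.12, and cyc and dco lie near the crossing.

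The profiles of the first cwo probe set and vri over the 6 arrays were more alike than either was to any other varying probe set. With each profile centred on its own mean, they differed by a root mean square of 0.055 log2 units. Of the other 7239 varying probe sets 0 lay closer to either. The second cwo probe set was among those 7239, so it lay farther from the first than vri did. The first read 2.08 above the second on average with fragments and 1.48 above it with medium alone. The profiles were not scaled, so the distance of 0.055 also depends on the size of the differences. These ranked 24 for the first cwo probe set and 26 for vri. Few probe sets rose that far, and the genes were chosen with this comparison known. The closeness is thus a description, and a shared cause was not tested. Outside the clock, the named gene with the nearest profile to both was MFS14, a gene of the major facilitator transporter family, at 0.089 from vri and 0.11 from cwo. Next came Gli, which encodes the septate junction protein Gliotactin, for vri (0.11), and CG7142 for cwo (0.13). MFS14 read 9.83, 9.62 and 9.29 on the fragment arrays, against 8.85, 8.84 and 7.95 on the arrays of medium alone. It thus shared the low value on medium-alone replicate 3.

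The nearest profiles to Pdp1 were those of scb, an integrin alpha subunit gene, at 0.025 log2 units, and T48 at 0.030. Pdp1 stood 0.34 from vri and 0.36 from cwo, and its deviations were smaller than theirs. For cyc the nearest were pHCl-1 (0.0034) and CG42340 (0.0079), and for dco CG11883 (0.025) and mav, an activin-type ligand gene (0.025). These small distances for cyc and dco go with small ranges over the arrays, 0.065 for cyc and 0.28 for dco, at which many profiles look alike.

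In the RefSeq gene table Clk and Pdp1 are near neighbours with 2 protein-coding genes, CG32371 and CG32369, between them. Clk and CG32371 were flat, at 6.09 and 5.98. Pdp1 and both probe sets of CG32369 varied, and CG32369 differed by 0.38 and 0.46 log2 units with overlapping groups. The probe set with 0.46 read 9.92, 9.74 and 9.82 on the fragment arrays, against 9.72, 9.86 and 8.54 on the arrays of medium alone. Only medium-alone replicate 3 stood low there, and the 0.46 rested largely on that array. The other probe set read 8.53, 8.70 and 8.42 on the fragment arrays, against 8.53, 8.06 and 7.92. Medium-alone replicate 3 was its lowest array too.

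Transcripts of genes whose products act on the clock proteins were also measured. Of 12 measured genes for kinases, phosphatases and ubiquitin ligase parts, 3 were flat and 0 passed in either limma fit. The list had 17 genes, of which CkIIalpha, CkIIbeta, sgg, nmo and mts matched no single-gene probe set and were not examined. An unadjusted p under 0.05 was reached over all probe sets by 1, the flat probe set of wdb, which can show no difference, and over the varying ones by 1, slmb. The shares of all probe sets and of all varying ones that reached it were 10.8% and 23.6%. Their varying members had a median difference of 0.0088. slmb, which encodes the F-box protein that targets phosphorylated PER for destruction, read 8.89, 9.10 and 8.82 on the fragment arrays, against 8.69, 8.68 and 8.24 on the arrays of medium alone (difference 0.40, limma adjusted p = 0.527 over all and 0.186 over varying probe sets). Its ligase scaffold Cul1 differed by 0.16 (0.560 and 0.234). In both genes the groups did not overlap, and in both medium-alone replicate 3 was lowest. Such separation upward was seen in 2 of the 9 varying members of the list and in 14.7% of all varying probe sets. Without medium-alone replicate 3, slmb differed by 0.25 and Cul1 by 0.092, with limma adjusted p of 0.150 and 0.239 over the varying probe sets.

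Among 13 measured cofactors of transcription, chromatin and translation, 2 were flat and 0 passed over all probe sets in limma. An unadjusted p under 0.05 was reached there by 3 of the 13, against 10.8% of all probe sets. Over the varying probe sets 1 of 11 passed, the histone deacetylase gene HDAC1, which fell. Of all 7241 varying probe sets 6.85% passed in either direction, 330 of them lower. HDAC1 read 8.57, 8.52 and 8.75 on the fragment arrays, against 9.04, 8.97 and 9.16 on the arrays of medium alone, a difference of -0.44 (limma adjusted p = 0.0389, and 0.0411 without medium-alone replicate 3). Medium-alone replicate 3, the lowest array for cwo, vri and Pdp1, was the highest of the 6 for HDAC1. wake, a clock output gene that had been placed in this list, differed by -0.40 (adjusted p = 0.367 over all and 0.0931 over varying probe sets). Without medium-alone replicate 3, 4 of the 11 varying genes of this list passed, against 12.1% of all varying probe sets: wake (limma adjusted p = 0.0316), HDAC1 and tyf, an activator of per translation in clock neurons (0.0227), were lower, and the translation factor gene NAT1 (0.0381) was higher.

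The list of clock input and output genes, which does not hold wake, gave little to compare. Of 11 measured, 6 were flat, among them Pdf, which encodes the main clock neuropeptide, and its receptor gene Pdfr, and 0 passed in limma in either fit (0 at an unadjusted p under 0.05). ITP, which encodes an ion transport peptide used by clock neurons, differed by -0.074, and the RNA-binding protein gene Fmr1 by 0.12, with limma adjusted p of 0.669 and 0.714 over all probe sets.

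Of 20 measured bZIP and bHLH genes outside the clock, 8 were flat and 0 passed over all probe sets in limma. An unadjusted p under 0.05 was reached there by 2 of the 20, against 10.8% of all probe sets. Their 12 varying members had a median difference of 0.28 log2 units and a median of -0.32 for medium-alone replicate 3 against the mean of replicates 1 and 2. Over the varying probe sets 1 of the 12 passed, kay, the fly Fos gene, which rose by 0.56 (limma adjusted p = 0.0454). Of all 7241 varying probe sets 6.85% passed in either direction, 166 of them higher. da, which encodes the common bHLH partner Daughterless, read 10.34, 10.27 and 10.29 on the fragment arrays, against 9.95, 9.81 and 9.34 on the arrays of medium alone. Its difference was 0.60 (adjusted p = 0.392 over all and 0.102 over varying probe sets, and 0.0132 over varying probe sets without medium-alone replicate 3). Without that array 3 of the 12 passed upward, against 4.72% of all varying probe sets, kay, da and the bZIP gene Irbp18 (limma adjusted p = 0.0287, 0.0132 and 0.0401).

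The label of the cells was set against marker genes. Of 18 hemocyte markers 11 varied, among them the GATA factor gene srp, Hml, crq and the collagen gene Col4a1, while NimC1, Sr-CI, the crystal cell genes lz, PPO1 and PPO2, the lamellocyte gene atilla and gcm were flat. Of 9 measured neuron and glia markers 6 were flat, with elav, moody and Csp varying, and of 9 markers of fat body, muscle, gut and photoreceptors 8 were flat. Among all probe sets 61.4% were flat, and a flat value does not show absence, so these counts do not settle the cell type. Varying values were not always high: on medium alone the mean was 10.68 for srp and 6.97 for eater, beside 8.14 for the neuron marker elav. The summed log2 value of the hemocyte list ran from 146.8 to 147.5 on the fragment arrays and from 144.5 to 149.0 on the arrays of medium alone. That of the neuron and glia list ran from 64.2 to 64.7 on the fragment arrays and from 63.2 to 64.6 on the arrays of medium alone. Medium-alone replicate 3 minus the mean of replicates 1 and 2 had a median of -0.41 over the varying hemocyte markers and of -0.55 over the 3 neuron and glia markers. The part of these shifts in the clock gene differences was not tested. Of the 18 hemocyte markers 0 passed over all probe sets in limma. Over the varying probe sets 1 of 11 passed, against 6.85% of all varying probe sets. It was crq, which encodes the engulfment receptor Croquemort and fell by 0.80 log2 units. Its limma adjusted p was 0.0698 over all probe sets and 0.00559 over the varying ones. eater differed by -0.11 and did not pass (0.228 over the varying ones). Without medium-alone replicate 3, 3 of the 11 varying hemocyte markers passed, against 12.1% of all varying probe sets, with crq and drpr lower and ush higher.

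The counts of calls depended on the scale. Hybridisation spikes, transcripts added to every array, read 10.38 ± 0.11 with fragments and 10.65 ± 0.16 with medium alone (SD, n = 3 each). Setting each array to its spikes added 0.26 to every difference, flat probe sets included, so no positive difference could turn. On that scale 4 clock probe sets passed, those of vri, Pdp1 and cwo, and the all-array calls were 1492 higher and 193 lower, against 10 higher and 47 lower as deposited. After quantile normalization they were 40 higher and 89 lower. P-values on the spike scale carry the variation of the spikes between arrays. The fit on the spike scale also gave every probe set the same SD of 0.17 log2 units. This is below the SDs of 0.51 to 0.70 of cwo and vri on the arrays of medium alone.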

How the data were processed

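The authors deposited a log2 value for each of 18952 probe sets on each array. The submitters' processing notes name R 2.7.2; the method of probe summary and array normalization is not given in these sources. Arrays give no read depth, and their number limits the precision. Groups came from the sample titles. The 183 control probe sets were left out of the tests, and 18 of them served as spikes. Of the 18769 tested, 13647 had 1 gene symbol, 402 several and 4720 none; all 9 clock genes matched the RefSeq gene table (Release 6 plus ISO1 MT) by identifier. No genome build is named for the values, so no coordinates are given, and promoter motifs were not analysed here.

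Fragments minus medium alone was fitted with limma 3.58.1 in R 4.3.3 (lmFit, eBayes, two-sided, Benjamini-Hochberg, threshold 0.05), without a level filter, over all probe sets and over the 7241 varying ones. The clock genes, the gene lists and the tests were chosen with earlier results of these data known. Named were all clock genes, the called or else the 2 varying members of smallest p of each other list (each gene by its brightest probe set on average), and the 2 nearest profiles; crc, srp, Hml, Col4a1, tyf, NAT1, Irbp18, drpr, ush, moody, the other flat genes named and the neighbours of Clk were added after their values were seen. Symbols of the lists that matched no single-gene probe set were left out. Alternatives were quantile normalization, the spike scale, a variance trend with robust moderation, the replicate number as a block, the probe set of largest range, and leaving out each array.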

Additional observations from a re-analysis of the deposited data

How the results depend on the processing

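With all 6 arrays, 0 clock probe sets passed in limma over all or over varying probe sets, after quantile normalization, with trend and robust moderation, and with the replicate block (3 at an unadjusted p under 0.05 in each of these fits). The count was 4 on the spike scale, where the fit gave all probe sets 1 pooled SD of 0.17, and 0 to 3 when 1 array was left out over varying probe sets, with 3 reached without medium-alone replicate 3. Over all 19 fits the cwo, vri, Pdp1 and cyc differences stayed positive, and that of dco, from -0.027 to 0.11 with 1 array left out, was below 0 without medium-alone replicate 3. The adjusted p of the first cwo probe set ranged from 2.31e-20, on the spike scale, to 0.683, that of vri from 7.50e-19 to 0.716 and that of Pdp1 from 4.32e-06 to 0.735. The count over all probe sets was 57 as deposited, 496 with flat probe sets left out, 129 after quantile normalization and 1685 on the spike scale. It ranged from 0 to 8 over all probe sets with 1 array left out, and among varying ones it was 140, 129 and 318 without fragment replicate 1, 2 or 3 and 156, 183 and 876 without medium-alone replicate 1, 2 or 3. Same-numbered arrays had deviations from their group means correlated at 0.44, 0.038 and 0.37 for numbers 1, 2 and 3 across varying probe sets. Deviations within a group of 3 depend on each other, so these correlations cannot decide whether the numbers pair the arrays. The labels name no shared day, so the number was used only in the alternative block. Among fragment arrays, medium-alone replicate 2 correlated best with replicate 1 by deviations (0.46) and with replicate 3 by values (0.9941). The replicate block gave 0 calls over all probe sets in limma (1868 at an unadjusted p under 0.05) and 449 over varying ones, with 0 clock probe sets in each. The cause of these changes was not tested. The probe set of largest range was also that of highest mean in each clock gene that varied.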
